A study of Homo sapiens with 20 samples.

Results

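The genes of glucose breakdown and of the response to low oxygen were followed in LNCaP, an androgen-responsive line of human prostate cancer cells. A list of 30 genes was taken: 2 glucose transporters, 9 genes of the upper and 6 of the lower enzymes of glycolysis, 3 of lactate handling, 3 regulators of flux and 7 other genes known to answer low oxygen. Of these, 27 had a transcript cluster of their own among the 18417 genes tested on 20 arrays, and the brightest such cluster was used for each. PGAM1, a phosphoglycerate mutase, lay only on features shared with PGAM4. SLC16A3, a lactate exporter, and CA9, a carbonic anhydrase, were not analysed here.

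The series title asks which transcripts under dihydrotestosterone (DHT), a natural androgen, depend on the cell cycle. CDT is the abbreviation the labels use for a medium in which the cells of the 6 control arrays spent 72 h. The group called CDT then received ethanol for 3 h (n = 3), and the group called CDT + DHT received DHT, 10 nM in the treatment protocol, for the same 3 h (n = 3). The 5 arrested groups grew instead in hormone-proficient medium, with a drug, and 10 nM DHT was present during their final 3 h. Early G1 stands for PD-0332991, an inhibitor of CDK4 and CDK6, given at 0.5 µM over 24 h (n = 3). Late G1 stands for roscovitine, which blocks several cyclin-dependent kinases, given at 5 µg/mL over 24 h (n = 3). Early S stands for 24 h of aphidicolin at 2 µg/mL, a block of DNA polymerase (n = 2). Late S stands for 24 h of 1 mM hydroxyurea, a drug that lowers the supply of deoxynucleotides (n = 3). G2/M stands for 15 h of aphidicolin, then a washout and 9 h of nocodazole at 50 ng/mL, which takes microtubules apart (n = 3). Arrested cells that had no DHT are not analysed here. No group analysed here had hormone-proficient medium without a drug. The effects of drug and medium therefore cannot be told apart wherever an arrest is set against CDT + DHT. All values come from 1 cell line, and the labels do not say whether arrays of a group came from separate cultures, so each p-value measures only the spread between arrays.

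Glycolysis turns glucose into pyruvate in the cytosol, and lactate dehydrogenase converts pyruvate to lactate or back. When oxygen falls, the hypoxia-inducible factors escape degradation, pair with ARNT and bind short DNA sites with the core ACGTG or GCGTG, which raises most glycolytic genes together with genes of blood vessel growth, oxygen sensing and mitochondrial turnover. Cancer cells often run glycolysis at a high rate in the presence of oxygen, and androgen receptor signalling is known to stimulate glucose metabolism in prostate cancer cells.

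That core was searched on both strands in the 250 bases upstream of each start site, in RefSeq promoters of GRCh38.p14, where 28 of the 30 listed genes had an entry. It was found in 17 of 28 (60.7%), against 51.1% of the promoters of all genes tested. The ACGTG form lay in 12 of 28 (42.9%, against 21.1%), the GCGTG form in 9 of 28 (32.1%, against 39.7%), and the palindrome CACGTG, which counts as 2 matches of ACGTG, in 5 of 28 (17.9%, against 7.86%). These are matches of letters, not measured binding. BNIP3 had the most matches, 6, and LDHA and ALDOC had 5 each. Below are 120-base windows of 6 genes on which the expression results turn, each 5′ to 3′ on the strand of the gene and placed where it holds the most matches. Capitals mark the core on either strand, so that CACGT and CACGC are the same cores read on the other strand. The windows are chr12:6914460-6914579 (+) for ENO2, chrX:78104037-78104156 (+) for PGK1, chr11:18394378-18394497 (+) for LDHA, chr12:21657843-21657962 (-) for LDHB, chr10:131981947-131982066 (-) for BNIP3 and chr10:73096867-73096986 (-) for P4HA1.
ENO2: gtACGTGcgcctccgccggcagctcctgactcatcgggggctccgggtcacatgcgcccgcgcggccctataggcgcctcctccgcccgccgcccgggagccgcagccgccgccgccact
PGK1: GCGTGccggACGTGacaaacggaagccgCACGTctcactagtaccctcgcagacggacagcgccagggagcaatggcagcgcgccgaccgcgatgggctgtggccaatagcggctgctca
LDHA: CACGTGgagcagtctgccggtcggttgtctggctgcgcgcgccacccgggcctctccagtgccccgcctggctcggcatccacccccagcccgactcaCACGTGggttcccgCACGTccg
LDHB: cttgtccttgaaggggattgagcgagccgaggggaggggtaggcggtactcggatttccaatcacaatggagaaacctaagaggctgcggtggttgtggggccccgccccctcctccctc
BNIP3: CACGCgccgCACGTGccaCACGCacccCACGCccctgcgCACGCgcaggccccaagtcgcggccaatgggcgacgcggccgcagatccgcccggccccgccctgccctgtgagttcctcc
P4HA1: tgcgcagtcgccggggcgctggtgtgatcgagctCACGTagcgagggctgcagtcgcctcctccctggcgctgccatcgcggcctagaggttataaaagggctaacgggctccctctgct
The paired genes of lactate dehydrogenase differed in this respect, with 5 matches in the LDHA window and 0 in the 250 bases before LDHB. The ENO2 window held 1 match and the PGK1 window 3.

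All levels below are log2(intensity + 1) of the deposited values, and differences are on that scale. Array medians ran from 5.44 to 9.08 in intensity, and 12 of the 540 member values, in 5 genes, lay below a log2 level of 1. The 5 luminal prostate markers measured of 8 listed (KLK3, EPCAM, HOXB13, KRT8 and KRT18) lay at percentiles 90.4 to 99.2 of all genes, and the basal markers KRT5 and KRT14 at 57.3 and 64.1. The 5 stromal genes lay at percentiles 4.68 (LUM) to 67.8 (COL1A1), the 4 leukocyte genes at 25.1 (PTPRC) to 66.9 (CD68), and the endothelial genes PECAM1, VWF and CDH5 at 12.3, 22.9 and 96. On the leading axis of the spread within groups 4 arrays lay far out at the high end, with scores of 48.9 to 83.1. These were replicate 1 of CDT and of late S, replicate 2 of early G1 and replicate 3 of CDT + DHT. They are called the arrays that stood apart, and results that rest on them are also given without these 4 arrays. Late S replicate 2 lay about as far out at the low end (-78.9), followed by CDT replicate 2 (-49.1) and early G1 replicate 1 (-45.1). All of these low arrays were kept, so leaving out the 4 arrays trims only the high end. Since whole cell populations were measured, fewer cells that express a gene and less RNA per cell cannot be told apart.

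**Figure D1:**
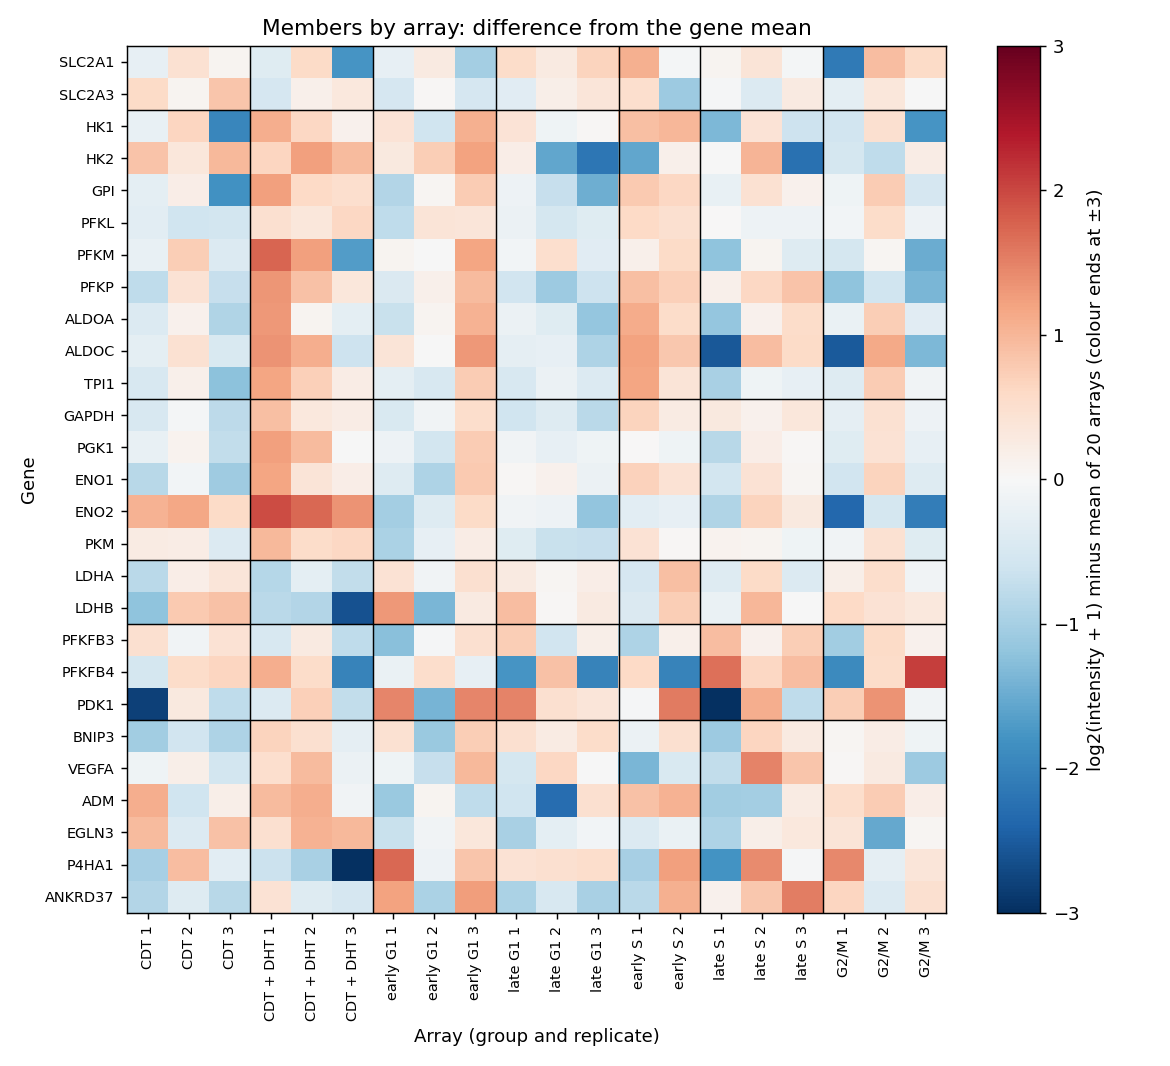
Each row is 1 of the 27 genes measured, grouped by role with horizontal lines, and each column is 1 array, grouped by condition with vertical lines; the colour gives log2(intensity + 1) minus the mean of that gene over the 20 arrays. In the ENO2 row all 3 CDT + DHT arrays (6.70 to 7.31) are red and 2 of the 3 G2/M arrays (2.99 and 3.27) are deep blue, and in the LDHB row the 3 CDT + DHT arrays (5.74 to 7.54) are blue.

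The first comparison asked what 3 h of DHT did in CDT medium. No member passed the test, and neither did any other of the 18417 genes (0% called; limma, Benjamini-Hochberg adjusted p under 0.05; 1263 genes, or 6.86%, had an unadjusted p under 0.05). The lowest adjusted p among the members was 0.696. As a description, all 14 measured enzymes of the chain from hexokinase to pyruvate kinase had a higher mean with DHT, with a median difference of 0.94, while 44.8% of all genes had a higher mean and the median over all genes was -0.10. Of the 27 members 24 were brighter than the median gene, whereas the figures for all genes include dim ones. Genes of the pentose phosphate pathway and the citric acid cycle, given further below, had medians nearly as high. The 2 lactate dehydrogenases had lower means with DHT.

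GPI, which turns glucose 6-phosphate into fructose 6-phosphate, read 6.32, 6.80 and 4.80 in CDT and 7.85, 7.21 and 7.11 in CDT + DHT, so every DHT array lay above every CDT array. Its difference was 1.42 ± 0.58 (SE), with an adjusted p of 0.696 in limma. ENO1, the widely expressed enolase, read 6.41, 7.15 and 6.18 in CDT and 8.41, 7.63 and 7.43 with DHT, also without overlap, a difference of 1.24 ± 0.53. TPI1, the triose phosphate isomerase, read 8.16, 8.81 and 7.41 in CDT against 9.84, 9.36 and 8.86 with DHT. The lowest DHT array of TPI1 lay only just above the highest CDT array, and the difference was 1.23 ± 0.52. GAPDH, which oxidises glyceraldehyde 3-phosphate and often serves as a reference gene, read 6.96, 7.39 and 6.67 in CDT and 8.36, 7.76 and 7.67 with DHT, a difference of 0.92 without overlap. PFKL, a phosphofructokinase, had the tightest arrays of these: 5.96, 5.68 and 5.71 in CDT against 6.75, 6.62 and 6.89 with DHT, again with no overlap.

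In all, 8 of the 27 members had every DHT array above every CDT array (GPI, PFKL, TPI1, GAPDH, ENO1, ENO2, PKM and BNIP3), and 0 had every DHT array below. Over all genes tested, 7.81% were separated upwards in this way and 5.95% downwards. The remaining chain enzymes had differences of 0.22 (HK2) to 1.19 (PFKP). PGK1, the phosphoglycerate kinase, differed by 1.01 ± 0.50, and its DHT replicate 3 (7.65) lay below the highest CDT array (7.76). Leaving out CDT + DHT replicate 1 or replicate 2 left 13 of 14 chain enzymes with a higher mean, and every other array left out kept 14 of 14. The median difference of the chain was 1.23 without the 4 arrays that stood apart and lay between 0.67 and 1.35 when 1 array was left out. Over 7 reference genes (ACTB, B2M, TBP, HPRT1, PPIA, YWHAZ and SDHA), which stand for the amount and quality of RNA, the mean level was 6.90 ± 0.45 (SD, n = 3) in CDT and 6.84 ± 0.50 (SD, n = 3) in CDT + DHT. Single arrays ran from 5.90 to 7.46 in this mean. The arrays that stood apart had its 4 lowest values: 5.90 (late S), 6.27 (CDT + DHT), 6.37 (early G1) and 6.42 (CDT). The part of RNA amount or quality in the results was not tested.

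The lactate dehydrogenases went the other way in their means. LDHB, whose subunit favours the step from lactate to pyruvate, read 7.15, 9.13 and 9.25 in CDT and 7.54, 7.48 and 5.74 with DHT. Its CDT replicate 1 was as low as the DHT arrays, so the groups overlapped, and the difference of -1.59 ± 0.71 did not pass (limma adjusted p 0.700). LDHA, the subunit that favours lactate, read 7.70, 8.72 and 8.89 in CDT and 7.66, 8.23 and 7.77 with DHT, a difference of -0.55 ± 0.50 with overlap. Without the 4 arrays that stood apart, which include the lowest LDHB array of each group, the differences were -1.68 for LDHB and -0.86 for LDHA.

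Of the glucose transporters, SLC2A1 differed by -0.61 and SLC2A3 by -0.51, with overlap in both. Of the flux regulators, PFKFB3 and PFKFB4, which set the level of fructose 2,6-bisphosphate, differed by -0.60 and -0.35, and PDK1, a kinase that shuts pyruvate dehydrogenase, by 0.95 over CDT arrays that ran from 1.22 to 4.31. Among the hypoxia-response genes, BNIP3, a mitochondrial protein that promotes mitophagy, read 6.91, 7.36 and 7.01 in CDT and 8.60, 8.42 and 7.67 with DHT. The BNIP3 arrays did not overlap, and the difference was 1.14 ± 0.55 (limma adjusted p 0.717). P4HA1, a subunit of the collagen prolyl 4-hydroxylase, read 3.10, 5.03 and 3.80 in CDT and 3.46, 3.13 and 0.97 with DHT, a difference of -1.46 ± 0.84 that was -0.68 without the low DHT replicate 3. VEGFA, the vascular growth factor, ADM, a vasodilator peptide, EGLN3, a prolyl hydroxylase that marks hypoxia-inducible factor for degradation, and ANKRD37, an ankyrin repeat protein, differed by 0.36 to 0.59, all with overlap.

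The second set of comparisons set each arrest against CDT + DHT, where both sides had DHT. These 5 comparisons share the same 3 CDT + DHT arrays, so a high or low array there enters all of them. ENO2, the enolase best known from neurons and neuroendocrine cells, was the only member that passed, and it fell in G2/M. It read 7.31, 7.06 and 6.70 in CDT + DHT, a mean of 7.02 ± 0.31 (SD, n = 3), and 2.99, 4.81 and 3.27 in G2/M, a mean of 3.69 ± 0.98 (SD, n = 3). All G2/M arrays lay below all CDT + DHT arrays. The difference was -3.33 ± 0.58 (SE; 95% interval -4.55 to -2.12), or 10.1-fold lower, with an adjusted p of 0.0301 in limma. In this comparison 0.44% of all genes were called, and 0.168% were called downwards. The mean of the 7 reference genes was 7.03 ± 0.27 in G2/M (SD, n = 3), and the basal markers KRT5 and KRT14 differed by -1.36 and -1.35 without passing; their part in the result was not tested.

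In the other arrests ENO2 was below CDT + DHT as well, without passing. In the G1 arrests it read 4.32, 4.95 and 5.92 (early) and 5.23, 5.19 and 4.16 (late). In the S arrests it read 5.04 and 5.09 (early) and 4.43, 6.01 and 5.63 (late). All 14 arrays of arrested cells thus lay below the lowest CDT + DHT array, a separation that 1.75% of all genes showed in that direction. The difference was -2.16 ± 0.58 for late G1 (limma adjusted p 0.0933), -1.96 ± 0.58 for early G1, -1.96 ± 0.65 for early S and -1.66 ± 0.58 for late S. A contrast of the mean of the 5 arrests with CDT + DHT, added after the data were seen, gave -2.22 ± 0.45 with a limma adjusted p of 0.0434, where 0.282% of all genes were called and 0.0869% downwards. Against the mean of CDT and CDT + DHT, also added, it gave -1.84 ± 0.35 with a limma adjusted p of 0.0145, where 0.592% were called and 0.217% downwards. CDT itself read 6.39, 6.50 and 5.91, and 12 of the 14 arrest arrays lay below all of these, a count that was not taken over all genes.

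The ENO2 call in G2/M depended on single arrays. It held without G2/M replicate 2, at -3.89 (limma adjusted p 0.0353), and without the 4 arrays that stood apart, at -3.50 (0.0315). It was lost without G2/M replicate 1, at -2.98 (0.132), or replicate 3, at -3.12 (0.122). It was also lost without CDT + DHT replicate 1, at -3.19 (0.0851), replicate 2, at -3.32 (0.0858), or replicate 3, at -3.50 (0.137), with the direction kept throughout. The call for the mean of the 5 arrests against CDT + DHT was lost without any 1 of 12 of its 17 arrays (limma adjusted p 0.0506 to 0.28, estimates -2.38 to -2.07). It held only without late S replicate 1 or 2, early G1 replicate 2, late G1 replicate 1 or G2/M replicate 2. Against the mean of CDT and CDT + DHT it was lost without CDT replicate 1 or CDT + DHT replicate 1 or 2 (limma adjusted p 0.056 to 0.0639) and without the 4 arrays that stood apart.

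**Figure D2:**
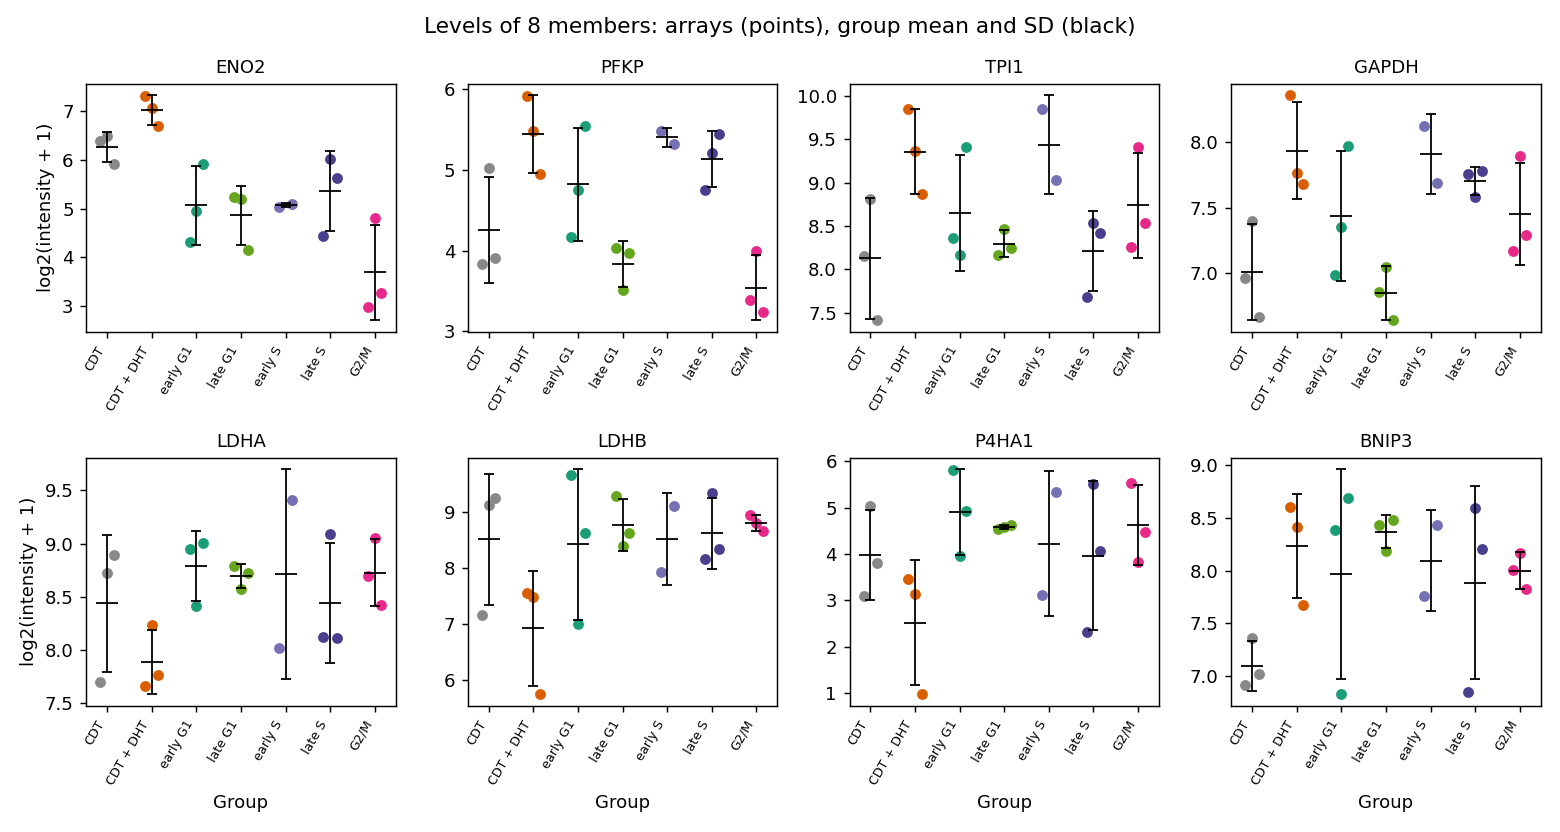
Each panel shows 1 gene, with its log2(intensity + 1) on the vertical axis (ranges differ between panels) and the 7 groups along the horizontal axis; points are arrays, and the black lines are the group mean and SD. ENO2 is highest in CDT + DHT (7.02) and lowest in G2/M (3.69), PFKP is lowest in G2/M (3.54) and late G1 (3.84), and LDHA, LDHB and P4HA1 have their lowest group mean in CDT + DHT (7.89, 6.92 and 2.52).

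The rest of the glycolytic chain was below CDT + DHT in its means without passing. All 14 measured chain enzymes had a lower mean in 4 of the arrests, with a median difference of -0.56 for early G1, -1.07 for late G1, -0.81 for late S and -0.76 for G2/M. In early S 9 of 14 did, with a median of -0.035. With an array of the arrest left out, the count fell to 10 of 14 without early G1 replicate 1, to 11 without early G1 replicate 2, to 13 without late S replicate 1 and to 5 without early S replicate 2. The share of all genes with a higher mean was 48.9% for early G1, 46.9% for late G1, 52.7% for early S, 49.4% for late S and 47.8% for G2/M, and the median over all genes lay between -0.07 and 0.06. None of the 14 enzymes had an array of arrested cells above all 3 CDT + DHT arrays. Since CDT + DHT replicate 1 was the highest of the 3 for most of these genes, the counts were also taken without it. They became 11 of 14 lower for early G1, 14 for late S, 13 for both late G1 and G2/M, and 4 for early S, and the late G1 median of all 27 members moved from -0.84 to -0.36.

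Late G1, reached with roscovitine, had the most chain enzymes apart from CDT + DHT. There 11 members had every array below every CDT + DHT array (HK2, GPI, PFKL, PFKP, TPI1, GAPDH, PGK1, ENO1, ENO2, PKM and EGLN3) and 3 had every array above (LDHA, LDHB and P4HA1), against 14% and 10.8% of all genes, while 0.516% of all genes were called. PKM, the pyruvate kinase of most tissues, read 8.95, 8.52 and 8.59 in CDT + DHT and 7.61, 7.30 and 7.29 in late G1, a clear gap between the groups, with a difference of -1.29 ± 0.44 (limma adjusted p 0.197). PFKP, the platelet-type phosphofructokinase, read 5.92, 5.48 and 4.95 in CDT + DHT and 4.03, 3.51 and 3.98 in late G1, a difference of -1.61 ± 0.50 (limma adjusted p 0.150). GAPDH read 6.86, 7.05 and 6.64 in late G1, below its 3 CDT + DHT arrays, a difference of -1.08 ± 0.44. HK2, an inducible hexokinase, read 2.90, 3.47 and 3.21 in CDT + DHT and 2.46, 0.68 and 0.08 in late G1. The HK2 difference of -2.12 ± 0.73 lay at the low end of the signal, with late G1 arrays spread over more than the gap between the groups.

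In G2/M 5 members lay wholly below CDT + DHT (HK2, PFKP, ENO2, PKM and EGLN3) and 3 wholly above (LDHA, LDHB and P4HA1), against 11.8% and 15.1% of all genes. PFKP read 3.39, 3.999 and 3.24 in G2/M, and after ENO2 it had the lowest adjusted p of the members there (-1.91 ± 0.50, limma adjusted p 0.0868). It passed under 5 of the alternative settings, with adjusted p between 0.00494 and 0.0449: a pseudocount of 16, quantile normalization, centring of arrays, leaving out dim genes and array weights. PFKP did not pass under the other settings (limma adjusted p 0.0507 to 0.131) or without the 4 arrays that stood apart (0.0753). Nor did it pass with any single array of either group left out (0.125 to 0.289). PFKM and PFKL, the muscle and liver types of the same enzyme, differed by -1.09 and -0.37. ALDOC, an aldolase, differed by -1.52 over G2/M arrays that ran from 2.20 to 5.84, overlapping the CDT + DHT arrays.

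Early G1 had 3 members wholly below CDT + DHT (ENO2, PKM and EGLN3; 8.71% of all genes) and 2 wholly above (LDHA and P4HA1; 7.16%), where 0% of genes were called. Early S had 5 below (HK2, ENO2, PKM, VEGFA and EGLN3; 13.2%) and 1 above (LDHB; 15.3%), where 0.00543% were called. Late S had 6 below (GPI, PFKL, TPI1, ENO2, PKM and EGLN3; 8.81%) and 1 above (LDHB; 6.29%), where 0.0706% were called. ENO2, PKM and EGLN3 were on the lower side in each of the 5 comparisons, and all 14 arrest arrays of each lay below the shared CDT + DHT arrays.

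LDHA, LDHB and P4HA1 were higher in mean in all 5 arrests than in CDT + DHT, and none passed. LDHB read 9.66, 6.99 and 8.62 (early) and 9.28, 8.39 and 8.63 (late) in the G1 arrests. In the S arrests it read 7.93 and 9.11 (early) and 8.16, 9.35 and 8.34 (late), and in G2/M 8.95, 8.80 and 8.67. Only early G1 replicate 2 was within the range of the CDT + DHT arrays (5.74 to 7.54), so 13 of 14 arrest arrays lay above them. The LDHB differences ran from 1.51 (early G1) to 1.89 (G2/M), with SEs of 0.71 to 0.79, and the limma adjusted p in G2/M was 0.222. LDHA arrays of arrested cells lay above all CDT + DHT arrays in 11 of 14 cases, with differences of 0.56 (late S) to 0.90 (early G1). With 1 array left out the LDHA difference kept its sign but ran as low as 0.13 (early S without its replicate 2) and 0.23 (late S without its replicate 2), and as high as 1.53 (early S without its replicate 1). P4HA1 arrays lay above all CDT + DHT arrays in 12 of 14 cases, with differences of 1.45 (late S) to 2.39 ± 0.84 (early G1, limma adjusted p 0.546). The share of all genes that reach 11, 12 or 13 of 14 was not taken, and every such count uses the same CDT + DHT arrays. Without CDT + DHT replicate 3, one of the arrays that stood apart, the P4HA1 differences were 0.67 (late S) to 1.61 (early G1) and the LDHB ones 0.91 (early G1) to 1.30 (G2/M). Over all single arrays left out, LDHB ran from 0.89 (early G1 without its replicate 1) to 2.22 (early G1 without its replicate 2), and P4HA1 from 0.60 (early S without its replicate 2) to 2.86 (early G1 without its replicate 2).

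Set against each other within an array, the chain and the lactate dehydrogenases separated CDT + DHT from all other groups. The mean of the 14 chain enzymes minus the mean of LDHA and LDHB was -0.47, -1.15 and -0.63 in the 3 CDT + DHT arrays and lay between -3.80 and -1.55 in the other 17 arrays. Its sign carries no meaning, since probes differ in brightness, and only the change between arrays can be read. The group mean was -2.72 ± 1.07 in CDT and -0.75 ± 0.35 in CDT + DHT (SD, n = 3 each). Early S had -2.23 ± 0.97 (SD, n = 2). The other arrests, with n = 3 each, had -2.55 ± 1.01 (early G1), -3.23 ± 0.27 (late G1), -2.71 ± 0.32 (late S) and -3.19 ± 0.48 (G2/M; SD). This measure was put together after the single genes had been seen and was not tested. The 3 CDT + DHT arrays, one of which stood apart, did not overlap with any other array, while the groups other than CDT + DHT overlapped widely.

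**Figure D3:**
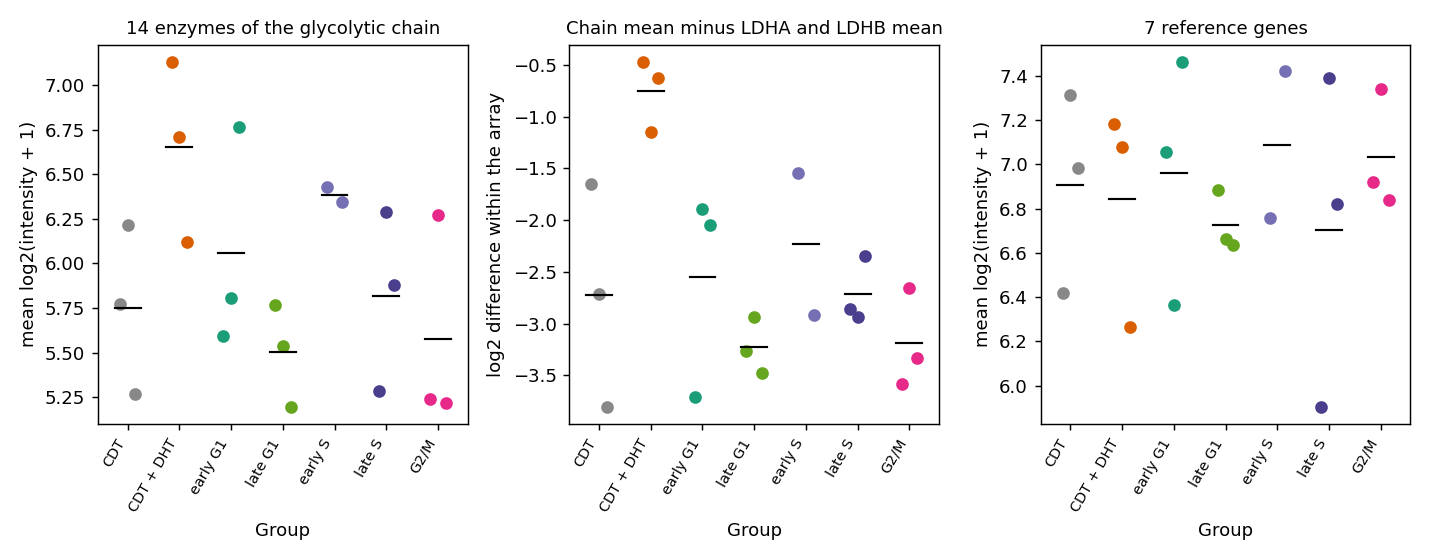
Points are arrays and lines are group means, with the 7 groups along each horizontal axis: the mean log2(intensity + 1) of the 14 chain enzymes (left), that mean minus the mean of LDHA and LDHB (middle), and the mean of 7 reference genes (right). In the middle panel the 3 CDT + DHT arrays (-0.47 to -1.15) lie above every other array. In the right panel group means run from 6.70 to 7.09 and single arrays from 5.90 to 7.46.

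The transporters, regulators and hypoxia-response genes did not share 1 direction in the arrests. SLC2A1, the widely expressed glucose transporter, differed from CDT + DHT by 0.19 to 1.02, and SLC2A3, a transporter of high affinity, by -0.31 to 0.07. SLC2A1 had single low arrays, at 1.99 in CDT + DHT replicate 3 and 1.62 in G2/M replicate 1. PFKFB3 differed by -0.07 to 0.92 and PFKFB4 by -0.84 to 1.18, over PFKFB4 arrays that ran from 0.01 to 4.09. PDK1 differed by -1.08 in late S and by 0.66 to 0.92 in the other arrests, and its 3 late S arrays read 0.01, 5.12 and 3.25. The array at 0.01, late S replicate 1, was one of those that stood apart.

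EGLN3 read 5.00, 5.55 and 5.48 in CDT + DHT and between 2.97 and 4.90 in the 14 arrest arrays, which all lay below. Its differences of -1.29 in late G1 to -0.98 in early G1 and late S did not pass, and CDT itself spanned the gap with 5.46, 4.10 and 5.38. VEGFA differed by -1.34 in early S, where it read 3.67 and 4.56, and by -0.69 to 0.10 in the other arrests. ADM differed by -1.45 to -1.25 in early G1, late G1 and late S and by -0.15 and 0.32 in G2/M and early S, with 1 late G1 array at 0.05. BNIP3 stayed within -0.35 to 0.14 of CDT + DHT. ANKRD37 differed by -0.65 in late G1 and by 0.27 to 0.99 in the other arrests.

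Against CDT, where DHT, drug and medium all differ, no member passed in any arrest. The lowest adjusted p of a member in limma was 0.110 for ENO2 in G2/M, at -2.57 ± 0.58 and without overlap, where 0.109% of genes were called. The share of genes called was 0.00543% for early G1, 0.0326% for early S, 0.0977% for late S and 0.103% for late G1, with a lowest adjusted p of a member of 0.955, 0.856, 0.764 and 0.423. These comparisons share the 3 CDT arrays.

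Early S had the most members apart from CDT. There 10 of them lay wholly above CDT (HK1, GPI, PFKL, PFKP, ALDOA, ALDOC, TPI1, GAPDH, ENO1 and BNIP3; 11% of all genes) and 2 wholly below (HK2 and ENO2; also 11%), and 12 of 14 chain enzymes had a higher mean, with a median of 1.06, against 53.1% of all genes and a median of 0.07. TPI1 read 9.84 and 9.03 in early S, above its 3 CDT arrays, a difference of 1.31 ± 0.59. HK1, the constitutive hexokinase, read 5.10 and 5.19 in early S and 3.96, 4.83 and 2.23 in CDT, a difference of 1.47 ± 0.77 over a wide spread in CDT. HK2 read 0.69 and 2.39 in early S, below 3.11, 2.59 and 3.22 in CDT. With only 2 arrays in early S, separation from CDT is reached more easily than with 3. In early G1, too, 12 of 14 chain enzymes had a higher mean than in CDT (47.9% of all genes), but 8 of 14 without early G1 replicate 3. The count was 5 for late G1 (42.6%), 8 for late S (44.5%) and 7 for G2/M (47.2%). With 1 array left out it ran from 2 (without CDT replicate 3) to 9 (without CDT replicate 2) for late G1 and was 8 without late G1 replicate 3. It ran from 5 (without CDT replicate 3) to 11 (without CDT replicate 2) for late S, and from 6 to 9 for G2/M.

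Fully separated members were few in these other arrests. Early G1 had 0 above (3.21% of all genes) and SLC2A3 below (7.07%), and late G1 had PDK1 and BNIP3 above (5.52%) and HK2 and ENO2 below (10.1%). Late S had PFKL, GAPDH and ANKRD37 above (4.01%) and 0 below (5.18%), and G2/M had PFKL and BNIP3 above (6.64%) and HK2 and ENO2 below (7.55%). BNIP3 had a higher mean than CDT in every arrest, by 0.79 to 1.27. Of its 14 arrest arrays 12 lay above all CDT arrays, and the share of all genes with such a count was not taken. In late G1 BNIP3 read 8.43, 8.19 and 8.49, well above the CDT arrays of 6.91, 7.36 and 7.01, a difference of 1.27 ± 0.55 (limma adjusted p 0.487). The exceptions were early G1 replicate 2 (6.82) and late S replicate 1 (6.85), both among the arrays that stood apart. ANKRD37 differed most in late S, where it read 3.91, 4.59 and 5.32 against 2.89, 3.39 and 2.95 in CDT, without overlap (1.53 ± 0.63, limma adjusted p 0.764). PDK1 differed from CDT by 1.61 to 1.87 in early G1, late G1, early S and G2/M, but CDT replicate 1 read 1.22 while the other CDT arrays read 4.31 and 3.25. P4HA1 differed from CDT by 0.93 in early G1.

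Among the 5 arrests, no member passed the moderated F test, in which 0.255% of genes were called. PFKP had the lowest p, 0.00683 (limma adjusted p 0.403), with its lowest mean in G2/M (3.54 ± 0.40, SD, n = 3) and its highest in early S (5.41 ± 0.12, SD, n = 2). From high to low, the PFKP means were 5.45 (CDT + DHT), 5.41 (early S), 5.14 (late S), 4.82 (early G1), 4.26 (CDT), 3.84 (late G1) and 3.54 (G2/M). Arrays of each neighbouring pair in that order overlapped. Against the mean of the other arrests, G2/M had ENO2 at -1.40 ± 0.47 and PFKP at -1.26 ± 0.40. Late G1 had ANKRD37 at -1.22, HK2 at -0.99, GPI at -0.98 and PFKP at -0.89. Early S had ADM at 1.34, ALDOC at 1.30, HK1 at 1.14 and PFKP at 1.07. Late S had PDK1 at -1.91 and PFKFB4 at 1.41, and early G1 had HK2 at 1.41. None of these passed, and the lowest adjusted p of a member over the 5 comparisons was 0.378 in limma. The share of genes called was 0.706% for late G1, 0.0271% for both late S and G2/M, and 0% for early G1 and early S.

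A further 3 pairs of arrests were compared directly, and no member passed. Between late and early G1, 13 of 14 chain enzymes had the lower mean in late G1 (median -0.37, with -0.10 and 44.4% higher over all genes). Without early G1 replicate 3 the count was 8 of 14 and the median -0.09. HK2, PFKP and ALDOC were wholly lower (6.75% of all genes) and SLC2A1 wholly higher (5.54%), and 0% of genes were called. For SLC2A1 the lowest late G1 array (4.030) lay only just above the highest early G1 array (4.028). Between late and early S, 12 of 14 had the lower mean in late S (median -0.58, with -0.19 and 41.7% over all genes). Without late S replicate 1, which stood apart, the count was 11 of 14 and the median -0.29. There 7 members were wholly lower (10.2%) and PFKFB4 wholly higher (8.69%), and 0.00543% of genes were called. Between G2/M and early S, 13 of 14 had the lower mean in G2/M (median -0.68, with -0.09 and 44.8%). There 5 members were wholly lower (10.4%) and 0 wholly higher (8.27%), and 0% were called. HK1, PFKM and ADM lay below both early S arrays in every late S and G2/M array.

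Other genes of the same pathways were read from a list for each pathway. Among 23 other genes of glucose handling, only PGM1, which interconverts glucose 1-phosphate and glucose 6-phosphate and so links glycogen to glycolysis, passed in any comparison. It read 6.18, 6.37 and 6.24 in CDT + DHT and 2.75, 3.73 and 4.17 in G2/M, a wide gap. PGM1 fell there by 2.71 ± 0.50 on the log2 scale (limma adjusted p 0.0301). In CDT it read 5.34, 5.54 and 5.35, between CDT + DHT and G2/M. In the added contrasts, the mean of the 5 arrests was lower by 1.86 ± 0.39 than CDT + DHT (limma adjusted p 0.0485). It was lower by 1.44 ± 0.30 than the mean of CDT and CDT + DHT (limma adjusted p 0.0309), where arrays overlapped. The call in G2/M was lost when any 1 of the 6 arrays was left out (limma adjusted p 0.0572 to 0.176). The call against CDT + DHT in the mean of the arrests was lost without any 1 of 14 of its 17 arrays. The call against both controls was lost without any 1 of 12 of its 20 arrays.

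No gene passed among 9 genes of pyruvate dehydrogenase, which feeds pyruvate into the mitochondria, 6 of the pentose phosphate pathway, 12 of the citric acid cycle, 27 other hypoxia-response genes and 8 of oxygen sensing. With DHT in CDT medium, the median difference was 0.07 for the other genes of glucose handling, -0.15 for pyruvate dehydrogenase, 0.79 for the pentose phosphate pathway, 0.82 for the citric acid cycle, -0.35 for the other hypoxia-response genes and 0.20 for oxygen sensing. In G2/M against CDT + DHT the medians were -0.21, 0.01, -0.50, -0.46, -0.11 and -0.07 in the same order. HIF1A, an oxygen-regulated subunit, read 2.97, 2.95 and 2.80 in CDT + DHT and 6.03, 5.67 and 5.66 in G2/M. The other arrests read 3.26 to 6.60, so that all 14 arrest arrays lay above the CDT + DHT arrays. Of all genes, 0.972% showed that separation in that direction. CDT read 1.73, 4.57 and 5.59, across that gap, and HIF1A did not pass in any comparison. EPAS1, another oxygen-regulated subunit, went the other way in G2/M, with 4.13, 2.95 and 2.40 in CDT + DHT and 0.34, 1.97 and 0.01 in G2/M. In late G1 EPAS1 read 2.11, 1.93 and 1.66, also wholly below CDT + DHT. Such separation downwards was seen in 11.8% of all genes for G2/M and 14% for late G1. EPAS1 arrays of the remaining arrests overlapped those of CDT + DHT, and it did not pass either.

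Features left out of the main tests gave values for PGAM1 and TPI1. The 5 features that PGAM1 shares with PGAM4, some of them with identical values, had differences of 0.53 to 0.94 between CDT + DHT and CDT, and the largest was on a feature with group means of 7.46 ± 0.31 in CDT and 8.40 ± 0.42 in CDT + DHT (SD, n = 3 each). The second, dimmer cluster of TPI1 differed by 1.01 ± 0.58 with DHT, near the 1.23 of the cluster used. In late G1 against CDT + DHT it differed by -2.20 ± 0.58 (limma adjusted p 0.115), where the cluster used differed by -1.06 ± 0.52, so the clusters had the same sign and different sizes.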

How the data were processed

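Cells of the LNCaP line were lysed in Trizol, and their RNA was amplified (NuGEN Ovation Pico WTA V2), biotin-labelled and hybridised to Affymetrix human gene arrays, per the labels' protocols. The authors deposited 1 linear intensity for each feature on each array. Per the submitters' processing notes they used Affymetrix Expression Console 1.1. How probes were summarised, and whether arrays were normalized to each other, is not given in the sources used here, and none was added. The number of arrays limits the precision.

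The file held 33297 features, of which 19460 had 1 gene symbol in the platform's annotation and 1754 had several. For 769 genes with several clusters the brightest was used, which gave 18417 genes. Levels were log2(intensity + 1). The pseudocount of 1 understates the change of dim genes. No 2 arrays were identical.

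All genes were fitted in limma 3.58.1 (R 4.3.3), with 1 mean per group over all 20 arrays, moderated two-sided tests and Benjamini-Hochberg adjustment over all genes at 0.05. The members, gene lists and tests were chosen with earlier results of these data known. All 30 members are named, and companion genes are named only where they passed, except HIF1A and EPAS1, which were named after their values were seen. The contrasts of the mean of the 5 arrests were added after seeing the data. The fit was tested on simulated data. Same-numbered arrays of different groups deviated together in some pairs and oppositely in others (correlations of -0.682 to 0.664, median -0.025), so no pairing was used. Alternatives were a pseudocount of 16, quantile normalization, centring, leaving out dim genes, the mean of clusters, every feature tested, trended and robust eBayes, array weights, the replicate block, the compared groups alone, and arrays left out. Promoter sequences came from RefSeq (GRCh38.p14).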

Additional observations from a re-analysis of the deposited data

How the results depend on the processing

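None of 1728 re-estimates of the genes chosen by the naming rule changed sign, and 85 of them counted as moved. That rule takes genes that passed or had the largest differences, so a kept sign was likely beforehand and lends no support. P4HA1 in CDT + DHT against CDT went from -1.46 to -0.55 with a pseudocount of 16. Several medians near 0 changed sign with 1 array left out. Some also did so under other settings such as quantile normalization, in late G1 against CDT and in comparisons with the mean of the other arrests. The chain median for early S against CDT + DHT went from -0.035 to 0.19 without CDT + DHT replicate 1, and against CDT that of late G1 from -0.15 to 0.12 without late G1 replicate 3 and that of late S from 0.08 to -0.18 without CDT replicate 3. LDHA in late G1 against CDT went from 0.25 to -0.11 without CDT replicate 1. Of 231 medians of the members' differences under alternatives other than single left-out arrays, 231 moved by less than the spread between arrays, and 219 of 242 counts of members called were within 1.5 times the main count. Centring each array moved the chain median for CDT + DHT against CDT from 0.94 to 1.09. In G2/M against CDT + DHT, where ENO2 alone was called, 2 members were called with a pseudocount of 16, quantile normalization, centred arrays or dim genes left out (ENO2 and PFKP each time), 3 with array weights and 0 with the replicate block (limma adjusted p 0.0515 for ENO2 and also for PGM1, which likewise lost its call). In late G1 against CDT + DHT, where 0 were called, 4 were called with a pseudocount of 16 (PFKP, GAPDH, ENO2 and PKM), 4 with array weights (HK2, PFKP, ENO2 and PKM), 2 with trended and robust eBayes, and 1 (ENO2) with centring or with dim genes left out. In G2/M against CDT, ENO2 was the 1 member called with a pseudocount of 16, dim genes left out, trended and robust eBayes, or array weights. With array weights 2 were called in late S against CDT + DHT and 1 in the F test among arrests. In the mean of the 5 arrests against CDT + DHT, 7 were called with array weights, and 0 with every feature tested, the replicate block, only the compared groups or without the 4 arrays that stood apart. Against the mean of CDT and CDT + DHT, 0 were called without those 4 arrays. With 1 array left out, the count ranged from 0 to 1 in each of these: G2/M against CDT + DHT (5 of its 6 arrays end the call), the mean of the arrests against CDT + DHT (12 of its 17 arrays) and that against both controls (3 arrays). The median difference of all measured members for early S against CDT ranged from 0.32 to 0.81, the highest without early S replicate 1. The replicate numbers are labels only: over 57 pairs of same-numbered arrays of different groups, deviations from group means correlated across genes at -0.68 to 0.66 (median -0.03), above 0.1 in 17 pairs. The cause of these shifts was not tested. Dim genes such as HK2, PFKFB4 and ADM limit what can be read, as their arrays reached the bottom of the scale.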
